A study of Mus musculus with 9 samples.

Results

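The wild-type libraries of a mouse prostate RNA-seq series were examined here on their own, as a description of the prostate transcriptome at baseline. They are the 3 libraries, of 9 in the series, whose labels give the wild-type (WT) genotype, and they are called WT library 1, 2 and 3 in accession order. The other libraries come from mice heterozygous or null for Srd5a2, the gene of type 2 steroid 5-alpha-reductase, which converts testosterone to dihydrotestosterone, and no genotype comparison was made. The WT animals carry intact Srd5a2 and belong to a colony begun from heterozygous males and C57BL6 females and bred on over further generations. The tissue is labelled primary prostate, and the sources used here give neither the age of the mice nor the lobes dissected. RNA was taken from whole tissue and enriched for polyadenylated transcripts. The labels do not say that the libraries come from separate animals, so the spread between them, given below as values or as SD, may in part be technical.

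The mouse prostate consists of paired ventral, lateral, dorsal and anterior lobes around the urethra, and the anterior lobe (the coagulating gland) lies against the seminal vesicle. Luminal epithelial cells of each lobe export large amounts of a few proteins under the control of androgens, and the set of proteins differs between lobes. After ejaculation the seminal vesicle proteins are cross-linked by a prostatic transglutaminase into the copulatory plug. In bulk tissue, fewer cells of a type and less RNA per cell cannot be told apart, and this holds for every level given here.

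The promoters of 4 genes are shown first, because the results turn on them. 9530053A07Rik held the largest mean share of counts, Sbp (spermine-binding protein, a ventral prostate secretion) varied most between the libraries, and Svs5 and Svs3a are seminal vesicle secretory protein genes of 1 cluster that ranked the libraries differently. Each line gives the 250 bases upstream of the RefSeq start site on GRCm38.p6, read on the gene's strand, which is the plus strand in each case. The windows are chr7:28129216-28129465 for 9530053A07Rik, chr17:23941428-23941677 for Sbp, chr2:164332515-164332764 for Svs5 and chr2:164289018-164289267 for Svs3a. Capitals mark AGAACA or its reverse complement TGTTCT, a half-site word of steroid hormone response elements, and the TATA-box word TATAAA.

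9530053A07Rik: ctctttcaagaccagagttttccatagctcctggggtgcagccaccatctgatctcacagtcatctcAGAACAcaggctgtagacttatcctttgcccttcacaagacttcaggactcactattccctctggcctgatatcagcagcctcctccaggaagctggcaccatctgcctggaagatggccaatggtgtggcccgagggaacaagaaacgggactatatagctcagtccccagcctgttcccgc

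Sbp: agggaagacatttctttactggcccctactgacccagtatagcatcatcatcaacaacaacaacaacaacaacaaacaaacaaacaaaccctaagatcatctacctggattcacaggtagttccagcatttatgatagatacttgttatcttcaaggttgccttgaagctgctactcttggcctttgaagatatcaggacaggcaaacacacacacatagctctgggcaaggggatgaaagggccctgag

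Svs5: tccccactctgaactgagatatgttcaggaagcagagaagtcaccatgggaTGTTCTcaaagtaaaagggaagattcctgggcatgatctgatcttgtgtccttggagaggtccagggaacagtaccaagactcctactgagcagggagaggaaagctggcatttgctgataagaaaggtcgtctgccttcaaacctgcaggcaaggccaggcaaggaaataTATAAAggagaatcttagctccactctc

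Svs3a: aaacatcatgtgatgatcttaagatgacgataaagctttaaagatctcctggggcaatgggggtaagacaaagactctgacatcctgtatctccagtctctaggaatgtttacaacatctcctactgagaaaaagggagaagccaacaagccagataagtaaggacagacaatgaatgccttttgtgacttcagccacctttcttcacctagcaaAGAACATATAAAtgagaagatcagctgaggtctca

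The half-site word started 183 bases before the RefSeq start of 9530053A07Rik, 199 before that of Svs5 and 35 before that of Svs3a. In Svs3a it ran directly into TATAAA, which started 29 bases before the start site, with no base in common. Svs5 had TATAAA 28 bases before its start. Neither word was in the Sbp window, nor was TATAAA in that of 9530053A07Rik. Among 32851 RefSeq promoter windows of this length, 16.1% held AGAACA or TGTTCT (both strands counted) and 7.59% held TATAAA as read on the gene's strand. The full palindrome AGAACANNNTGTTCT, which contains both half-site words, was in 3 of them. Of the 20 genes with the largest mean share of counts, 12 had a window in the table, and 5 of these held a half-site word, 6 held TATAAA and 0 held the palindrome. Of the 20 most variable genes, 16 had a window, and 8 held a half-site word, 7 TATAAA and 0 the palindrome. A match is a description of letters and does not show a bound site.

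A few secretory genes took a large part of each library. The 3 libraries held 19215332, 21137415 and 20077808 counts, and the single most abundant gene took 14.8%, 7.73% and 12.3% of them. The 10 most abundant genes took 28%, 21.5% and 30.3%, or 26.6% ± 4.58 (SD, n = 3). The number of genes needed to reach 50% of counts was 294 in WT library 1, 386 in library 2 and 217 in library 3, and 90% was reached with 5079, 5386 and 4988 genes. Library 2 thus had the flattest distribution and library 3 the steepest over this range. Counts were found for 20566, 19752 and 17940 genes, and thinning the libraries to equal depth changed these to 20566, 19709 and 17927, so the lower number in library 3 did not move with depth.

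**Figure D1:**
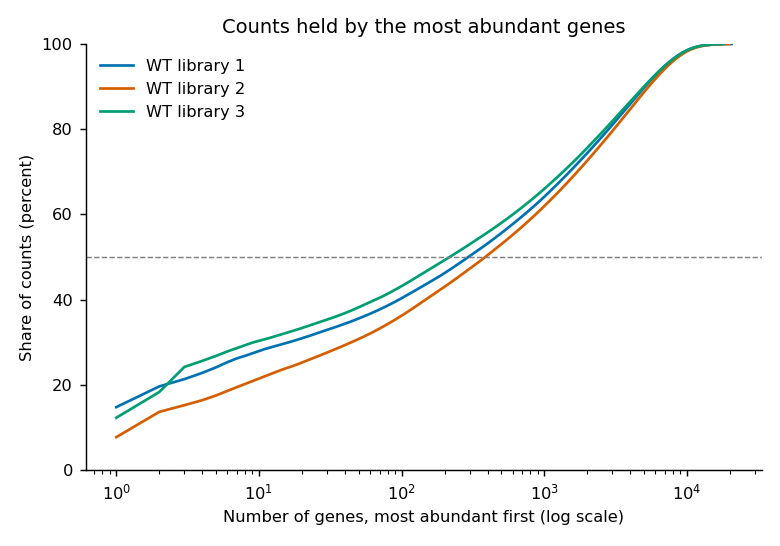
Cumulative share of each WT library's counts (percent, vertical axis) against the number of genes taken from the most abundant downward (log axis), with 1 line per library and a dashed line at 50%. The lines cross 50% at 294, 386 and 217 genes in WT libraries 1, 2 and 3.

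The leading gene was not the same in every library. 9530053A07Rik, which the table names only by its clone identifier, lies at chromosome 7, 28129466 to 28164811 on GRCm38 (mm10), is protein-coding and had 11843 exonic bases. Its counts were 14.8%, 7.73% and 6.03% of WT libraries 1, 2 and 3, and it ranked first in libraries 1 and 2. Svs2, a main structural protein of the mouse copulatory plug (chromosome 2, 164235929 to 164238466), took 4.86%, 1.58% and 12.3%, and ranked first in library 3. It lay below 9530053A07Rik in libraries 1 and 2 and above it in library 3. Svs5 (chromosome 2, 164332740 to 164334396) took 1.71%, 1.07% and 5.89%. Sbp (chromosome 17, 23941672 to 23945607) took 5.92% of library 2, where it was the second most abundant gene after 9530053A07Rik, and had only 19 counts in library 1 and 309 in library 3. Across the libraries, 2 genes were among the top 4 of all 3, 6 among the top 10 and 14 among the top 20.

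Pbsn and Tgm4 are prostate secretory genes with counts in every library. Pbsn encodes probasin, an androgen-regulated secreted lipocalin whose promoter is widely used to drive transgenes in prostate epithelium (chromosome X, 77837901 to 77853623). It took 1.30%, 1.16% and 0.800% of counts, the narrowest range of the 4 genes that mark this tissue. Those genes, 9530053A07Rik, Svs2, Sbp and Pbsn, together took 20.9%, 16.4% and 19.1%. Tgm4, the prostatic transglutaminase that cross-links plug proteins (chromosome 9, 123034726 to 123067561), took 1.46%, 0.602% and 0.386%. Pate4, a small secreted protein of the seminal vesicle (chromosome 9, 35607093 to 35611941), took 0.549%, 0.296% and 1.41%. Tgm4 was highest in library 1 and Pate4 in library 3. Of the exonic bases of Tgm4, 25.0% are shared with other genes, chiefly Zdhhc3 on the other strand, and of those of Pate4, 20.2% with Pate2. Whether the counting used strand is not stated in the labels, so reads in the shared bases cannot be told apart. The partners had far fewer counts. Zdhhc3 had 4586, 3779 and 2733, against 281325, 127232 and 77446 for Tgm4. Pate2 had 21, 40 and 41, against 105568, 62672 and 283482 for Pate4.

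Beside secretions, the top 20 held genes of protein synthesis and respiration, and these varied less than the secretions. mt-Co1, the first subunit of cytochrome c oxidase encoded by the mitochondrial genome, took 1.21%, 1.12% and 1.17% of counts. Eef1a1, the elongation factor that delivers tRNA to the ribosome, took 0.901%, 0.886% and 0.673%. Prdx6, a peroxiredoxin that reduces peroxides and phospholipid hydroperoxides, belongs to neither group and varied more, at 0.604%, 0.482% and 0.351%. Of the 100 genes with the largest mean share, 26 were ribosomal protein genes, 7 were mitochondrial, 12 belonged to the 2 secretion lists and 6 to a list of protein export machinery. The 103 ribosomal protein genes together took 5.57%, 6.71% and 5.42% of counts, and the mitochondrial genome 3.14%, 3.01% and 3.17%. Protein-coding genes held 98.2%, 98% and 98.1%.

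**Figure D2:**
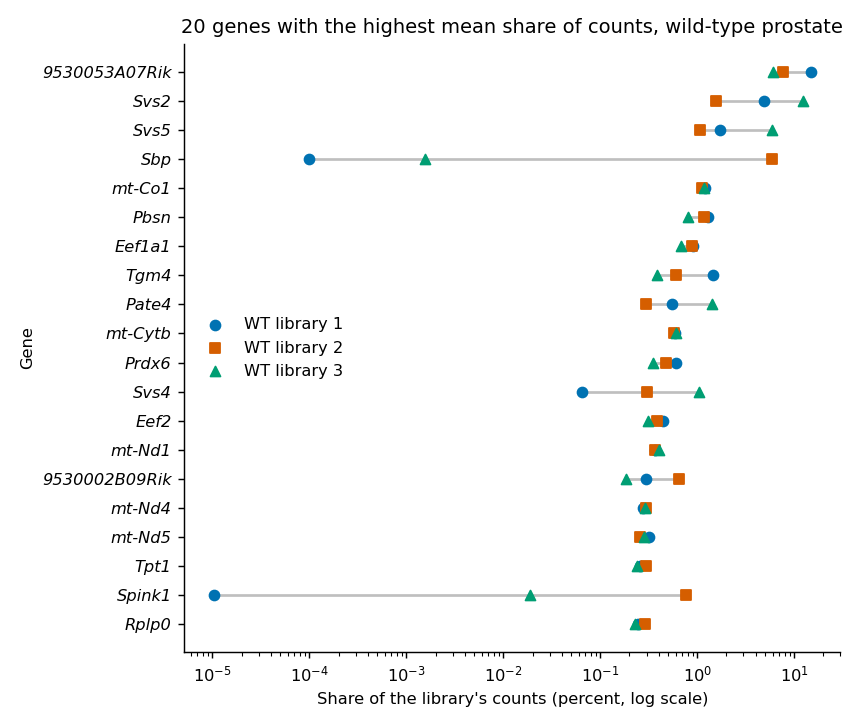
Share of each WT library's counts (percent, log axis) for the 20 genes with the largest mean share, with 1 symbol per library and a grey bar from the lowest to the highest. Mitochondrial and ribosomal genes have overlapping symbols, while the bars of Sbp, from 9.9e-05% to 5.92%, and Spink1 span most of the axis.

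On the FPKM scale, which divides by gene length and so allows levels of different genes to be compared, small secretory transcripts led. Svs5 had 25816, 15087 and 93398 FPKM in WT libraries 1, 2 and 3, and Svs2 had 23858, 7253 and 63375. Pbsn had 14038, 11768 and 9078 FPKM. 9530053A07Rik, first by counts, was sixth by mean FPKM with 12163, 5963 and 5218, since its transcript is long. Of the 20 genes with the highest mean FPKM, 15 were also among the 20 with the largest share. The fifth by mean FPKM, Gm23935, is a microRNA annotation of 57 bases on chromosome 16, with 9628, 9263 and 9465 FPKM from 10819, 12223 and 10578 counts. Its FPKM rests on a length shorter than the inserts of 250 to 300 bp given for these libraries, so it cannot be read as a level beside those of longer genes.

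The markers of secretory luminal epithelium were present in every library. All 15 genes of a luminal list had a mean of at least 10 CPM (counts scaled to library size), and their summed level was 2515, 2386 and 2019 FPKM. Krt18 and Krt8, the keratin pair of simple epithelium, varied least. Krt18 had 603, 608 and 596 FPKM, and Krt8 219, 219 and 226. Among abundant genes annotated as transcription factors in the table were Atf4 (147 FPKM on average), a factor of the integrated stress response, Ehf (119 FPKM), an epithelial ETS factor, and Hoxb13 (113 FPKM), a homeobox factor of the prostate. Slc45a3, a sugar transporter known as prostein, had 34.8, 59.8 and 16.5 FPKM. Krt18 and Krt8 thus each lay within a few percent across the libraries. Krt19, a further keratin of the list (317, 314 and 271 FPKM), Foxa1, a pioneer factor of luminal cells (60.7, 92.6 and 32.2 FPKM), and Slc45a3 were lowest in library 3.

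The summed levels of genes of secretion and of prostate metabolism differed less between the libraries than those of the secretions, with single members that varied more. A protein export list of 24 genes covers chaperones and disulfide isomerases of the endoplasmic reticulum and the translocon. It summed to 5003, 6181 and 4282 FPKM, and 17 of its 24 members were highest in WT library 2. The share of all genes highest in library 2 was not counted, so 17 of 24 cannot be set against it. P4hb, a protein disulfide isomerase, had 624, 689 and 565 FPKM, and Hspa5, the endoplasmic reticulum chaperone BiP, had 511, 642 and 398. Creld2, a stress-induced protein of that compartment, had 231, 544 and 238 FPKM. Xbp1 and Bhlha15, factors that expand the secretory apparatus, had mean levels of 82.1 and 91.9 FPKM. In a zinc and citrate list of 18 genes, Mt1, a metal-binding metallothionein, led with 1698, 1795 and 1404 FPKM, while Slc30a2, a zinc transporter, had 51.3, 35.6 and 33.2. In a polyamine list of 13 genes, Odc1, which makes putrescine, had 43.1, 66.6 and 53.1 FPKM. Amd1, whose enzyme supplies the aminopropyl groups of spermidine and spermine, had 45.7, 126 and 32.5 FPKM. Amd1 was the most variable member of the polyamine list that reached 10 CPM, with 168, 462 and 118 CPM.

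The androgen route was measured with 16 genes, of which 12 reached 10 CPM. Srd5a2, the enzyme gene of the study, had 1.39, 3.34 and 5.40 FPKM in WT libraries 1, 2 and 3. Srd5a1, its isoenzyme, had 2.70, 2.51 and 1.19 FPKM, and Srd5a3, which acts in protein glycosylation, 4.03, 2.76 and 4.31. Srd5a2 was lowest in library 1 and Srd5a1 in library 3, but neither gene reached a mean of 10 CPM. Fkbp5, an androgen- and glucocorticoid-induced co-chaperone, had 8.21, 15.6 and 17.9 FPKM, and Tmprss2, an androgen-regulated membrane protease, had 59.5, 43.1 and 34.7. Akr1c6 and Hsd3b6, enzymes of steroid metabolism, had no counts in these libraries. Beside Srd5a2, a transcript known from prostatic stroma, the smooth muscle sum described below was likewise highest in library 3 and lowest in library 1, and its part in the level of Srd5a2 was not tested.

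Most genes differed little between the WT libraries. CPM was scaled by trimmed mean of M-values (TMM) factors of 0.991, 1.06 and 0.954, and the ratio of the highest to the lowest library was taken for the 9198 genes with a mean of at least 10 CPM, with counts under 3 set to 3. The median ratio was 1.32, and 69% of the genes were under 1.5. A ratio over 4 was used as the line for a variable gene. It was passed by 204 genes, which is 2.22% of those measured, while 1002 were over 2, 69 over 10 and 23 over 100. The genes nearest to the line were Megf9 (3.998), Slc35f2 (3.998) and Lcn2 (3.994) below it and Cldn1 (4.001), Lifr (4.039) and Pon3 (4.039) above it. The biological coefficient of variation (the spread beyond counting error, as a fraction of the mean) was 0.311 over 14152 genes.

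The share of variable genes differed by level. Between 10 and 100 CPM it was 2.03% of 7691 genes, between 100 and 1000 CPM it was 2.73% of 1431, and between 1000 and 10000 CPM it was 8.57% of 70. Of the 6 genes above 10000 CPM, 3 were over the line, namely Svs2, Svs5 and Sbp, while 9530053A07Rik, mt-Co1 and Pbsn were not. A gene that reached the mean of 10 CPM through 1 library alone had to differ between libraries, so these counts are a description. At the other end, the gene with the smallest ratio among those over 100 CPM was Cope, a subunit of the coatomer that moves vesicles from the Golgi, with 299, 298 and 298 CPM. Selenot, Gnai2, Sar1a, Oaz1, Psma7, Dnajc7, Snrpb, Prkcsh and Ssr1 followed, and none of them ranged by more than a few percent. Sar1a and Ssr1 also serve protein export.

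**Figure D3:**
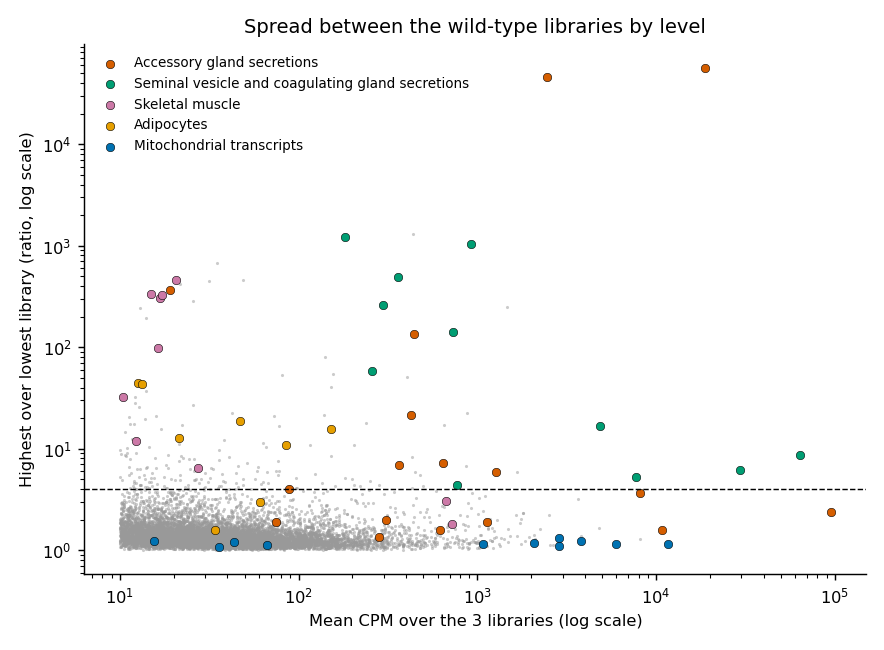
Ratio of the highest to the lowest WT library (log axis) against mean CPM over the 3 libraries (log axis) for the 9198 genes of at least 10 CPM, in grey, with members of 5 lists in colour and a dashed line at a ratio of 4. All 11 seminal vesicle genes lie above the line and all mitochondrial genes under a ratio of 1.5.

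WT libraries 2 and 3 were each the highest or the lowest library in most of the variable genes. Of the 204, 14 were highest in library 1 (0.152% of the 9198 genes), 89 in library 2 (0.968%) and 101 in library 3 (1.1%). The lowest value was in library 1 for 65 genes (0.707%), in library 2 for 92 (1%) and in library 3 for 47 (0.511%). These splits moved with the scaling. With plain library totals 192 genes passed the line, and 16, 104 and 72 of them were highest in libraries 1, 2 and 3, or 8.33%, 54.2% and 37.5% in place of 6.86%, 43.6% and 49.5%. Over 4-fold above both others were 0 genes in library 1, 47 in library 2 and 15 in library 3. Over 4-fold below both others were 14, 16 and 16. Compared in pairs, libraries 1 and 3 differed by over 4-fold in 44 of the 9198 genes, libraries 1 and 2 in 95, and libraries 2 and 3 in 173. Without library 2 the number of genes over the line was 38, and without library 3 it was 102. No pair agreed within counting error. The chi-square per degree of freedom was 183, 183 and 313 for libraries 1 and 2, 1 and 3, and 2 and 3. It averages over genes on plain totals, so genes with very large counts weigh most and it does not describe a typical gene.

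The genes that stood high in WT library 2 were led by secreted proteins. Sbp had 0.998, 56039 and 16.1 CPM in WT libraries 1, 2 and 3, the widest ratio measured. Spink1, a secreted trypsin inhibitor, had 2 counts in library 1, 160013 in library 2 and 3806 in library 3, or 0.105, 7161 and 199 CPM. Both genes stood in the order 2, 3, 1. Spink5, an inhibitor with several Kazal domains, had 0.998, 1305 and 1.57 CPM, and 5430419D17Rik had 17.3, 4337 and 26.8. Msmb, beta-microseminoprotein, had 54.6, 1163 and 67.8 CPM, and Defb50, a beta-defensin, had 209, 1500 and 227. For these 4 genes libraries 1 and 3 were close to each other and far below library 2.

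Other genes high in the same library had varied roles. Slc12a2, the sodium-potassium-chloride cotransporter of secretory epithelia, had 21.9, 1112 and 72 CPM. Pigr, the receptor that carries polymeric immunoglobulins to the lumen, had 122, 843 and 125 CPM. Slc26a4, the anion exchanger pendrin, had 0.315, 93.9 and 0.209 CPM, and Slc5a8, a sodium-coupled monocarboxylate transporter, had 0.368, 38.4 and 0. Crabp1, a retinoic acid-binding protein, had 2348 counts in library 2, 4 in library 3 and 0 in library 1, at least 667-fold higher in library 2 than a floor of 3 counts in library 1. C2cd4a had 1460 counts in library 2 and 0 in both others, at least 417.3-fold higher than that floor. BB123696, a long intergenic non-coding RNA, had 0.315, 145 and 2.61 CPM, and Naip6 had 2.73, 74.0 and 0.261. Naip6 has close paralogs, and reads may be split among them.

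Sbp did not stand alone at its locus. Sbpl, the spermine-binding protein-like gene that lies next to it on chromosome 17 (23953085 to 23954919, on the opposite strand), had 1281 counts in library 2 and 0 in both others, at least 366-fold higher than the floor. The flanking genes Dcpp3 and Prss30 had no counts in any of the 3. Sbp and Sbpl are related in sequence, so reads may be split between them. Counts on chromosome 17 made up 3.53%, 9.57% and 3.29% of the libraries, and the 5.92% held by Sbp in library 2 was most of that excess.

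The seminal vesicle and coagulating gland list was highest in WT library 3. The list held 12 genes, and 11 reached 10 CPM, all over the 4-fold line and all highest in library 3. Their median ratio was 57.8, against 1.32 over all 9198 genes. Of those 9198 genes, 2.22% were over the line and 1.1% were over it with library 3 highest. The list summed to 55657, 29777 and 192626 FPKM in WT libraries 1, 2 and 3. Svs2 had 49023, 14915 and 128721 CPM, Svs5 17263, 10097 and 61736, and Pate4 5543, 2805 and 14794. These 3 genes were highest in library 3 and lowest in library 2. Serpine2, a protease inhibitor of seminal fluid, had 646, 309 and 1358 CPM and the same order. So did Clu, the secreted chaperone clusterin and a member of the accessory gland list, with 905, 430 and 2505 CPM. Tgm4, also in the accessory gland list, went the other way, with 14771, 5694 and 4042 CPM and library 3 lowest.

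The other 7 of these 11 members put the libraries in a different order, with WT library 1 lowest. Svs4 had 654, 2890 and 10975 CPM. Svs1 had 2.42, 257 and 2503 CPM, and Svs6 13.4, 267 and 1904. Svs3a had 2.0, 98.5 and 978 CPM, and Svs3b, a close copy with which it may share reads, had 3.15, 69.9 and 821. Sva, seminal vesicle antigen, had 0.420, 36.4 and 512 CPM. Spinkl, a Kazal-type inhibitor, had 10.1, 184 and 583 CPM. In these 7 genes library 1 lay below library 2, whereas in Svs2 and Svs5 it lay above. Ceacam10, a member of the accessory gland list that is also secreted by the seminal vesicle, had 8.40, 185 and 1131 CPM and the same order as the 7.

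Both orders occurred within 1 gene cluster. Between Svs2 and Svs5 on chromosome 2 (164235929 to 164334396) lie Svs3b, Svs4, Svs3a and Svs6, and the 6 genes together held 6.64%, 3.0% and 19.6% of counts. The outer genes, Svs2 and Svs5, followed the order 3, 1, 2 and the 4 inner genes the order 3, 2, 1. Per length, Svs3a, whose promoter is printed above with that of Svs5, had 1.61, 79.2 and 796 FPKM and lay below Svs5 in each library. Chromosome 2 as a whole held 11.9%, 8.60% and 24.7% of counts.

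**Figure D4:**
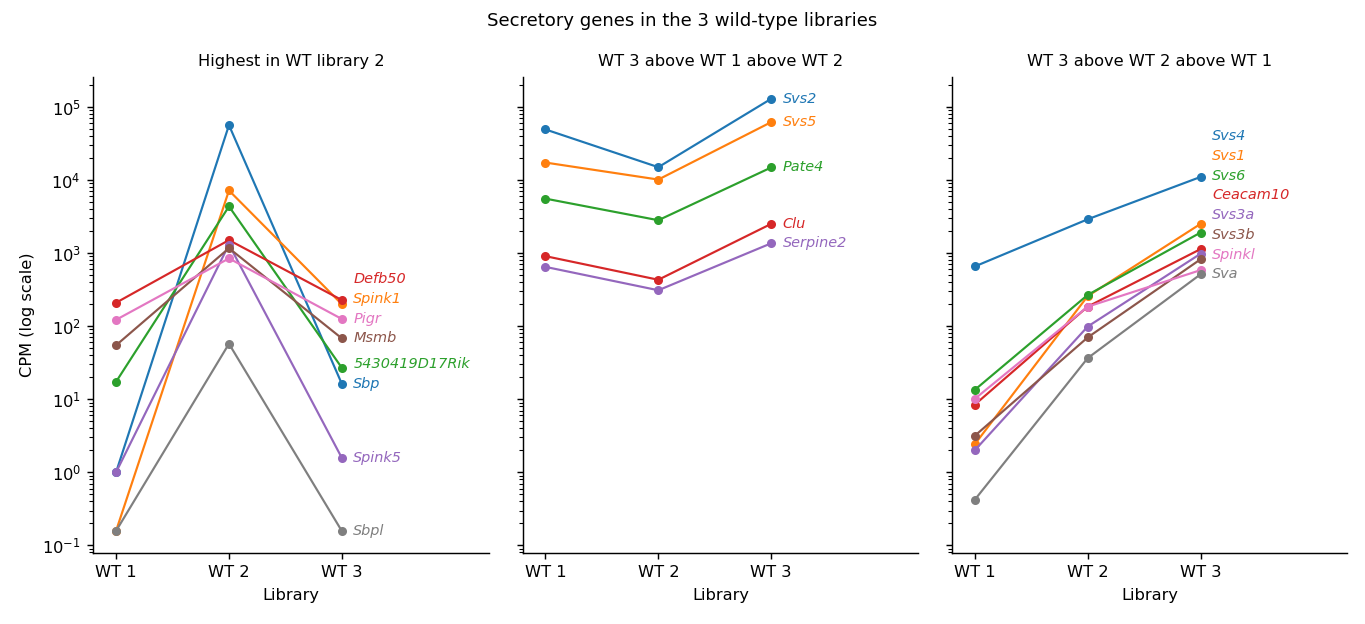
CPM (log axis) of secretory genes in the 3 WT libraries, in 3 panels by the order of the libraries, with 1 point per library and lines that only join the points of 1 gene. Counts under 3 are drawn at 3 counts (Spink1 in library 1, Sbpl in libraries 1 and 3), and the left panel peaks in library 2, the middle panel has its low point there, and the right panel runs from library 1 up to library 3.

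The accessory gland list behaved less uniformly. Of its 20 genes, 17 reached 10 CPM, 8 were over the line (2.22% of all 9198 genes were), and the median ratio was 3.99. The sum was 32812, 80259 and 19366 FPKM, with Sbp and Spink1 supplying 36772 and 16379 FPKM in WT library 2. Of the 17 genes, 5 were highest in library 1, 9 in library 2 and 3 in library 3. Mmp7, a matrix metalloproteinase of glandular epithelium, had 1613, 929 and 851 CPM and Rnase1, a secreted ribonuclease, had 750, 638 and 479, with library 1 highest in both. Azgp1, zinc-alpha-2-glycoprotein, had 340, 390 and 196 CPM. Klk1b27, a kallikrein, had no counts, Klk1 had 1 count in library 1 and 0 in the others, and Acpp, prostatic acid phosphatase, stayed under 10 CPM. Together the 2 secretion lists took 25.2%, 20.3% and 29.3% of counts.

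A pair of genes known from the ducts was low in WT library 2, where Sbp was high. Akr1b7, an aldo-keto reductase abundant in the vas deferens, had 1319, 58.3 and 1247 CPM, and Crisp1, a sperm-coating protein of the epididymis, had 1025, 60.1 and 869. Library 2 was lowest for both, with a ratio to the highest library of 22.6 and 17.1, and 27.2% of the exonic bases of Akr1b7 overlap Gm13857 on the other strand. In a list of 13 epididymis and vas deferens genes, 4 reached 10 CPM and 6 had no count in any library (Crisp4, Lcn8, Lcn9, Lcn10, Cst8 and Rnase10). The list summed to 2014, 542 and 1941 FPKM. The other members over 10 CPM did not share the pattern of Akr1b7 and Crisp1. Defb1, an epithelial beta-defensin, was highest in library 2, with 276, 404 and 330 CPM, and Adam28, a membrane protease, was lowest in library 3, with 20.6, 16.2 and 12.1. The source of Akr1b7 and Crisp1 in these tissues was not tested.

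**Figure D5:**
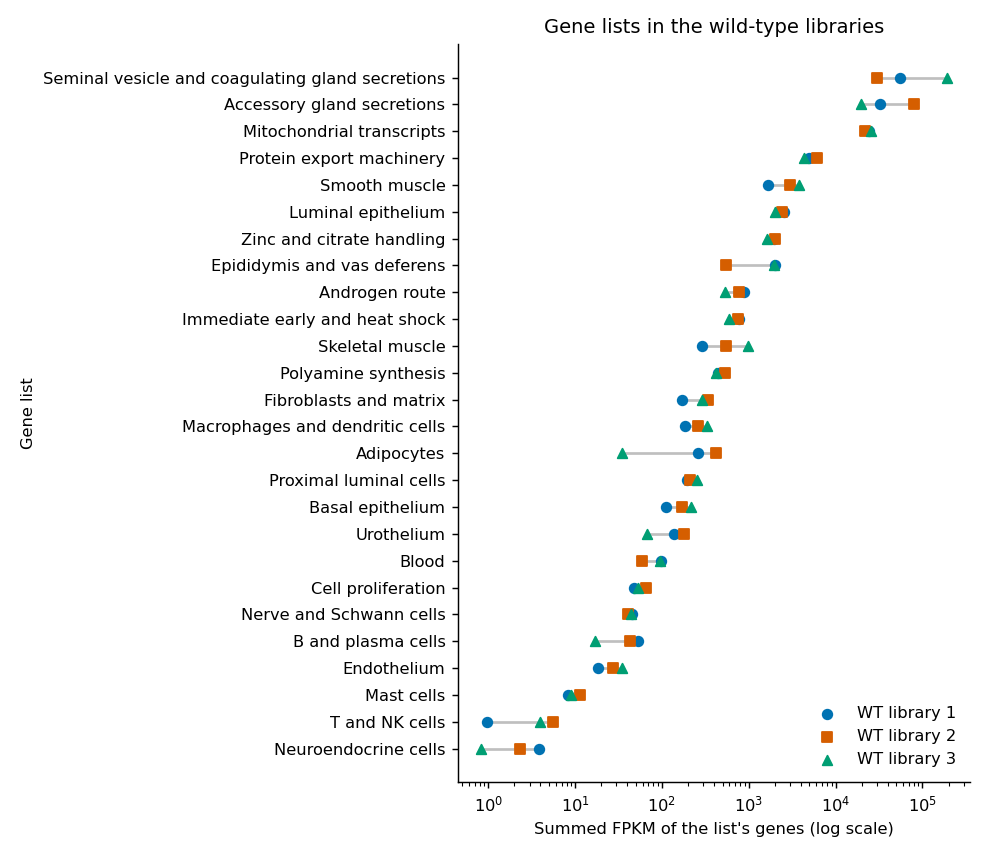
Summed FPKM (log axis) of 26 gene lists in the 3 WT libraries, with 1 symbol per library and a grey bar from the lowest to the highest. Lists of the 2 secretion groups have the highest means, although in library 3 the mitochondrial list (25811 FPKM) lies above the accessory gland list (19366 FPKM), and the adipocyte list spans 34.3 to 416.7 FPKM.

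Smooth muscle and matrix markers were lowest in WT library 1. All 12 smooth muscle genes reached 10 CPM, none was over the 4-fold line, and all 12 were lowest in WT library 1 and highest in library 3. They summed to 1669, 2965 and 3752 FPKM. Acta2, smooth muscle alpha-actin, had 965, 1858 and 2136 CPM, Actg2, the gamma-actin of visceral smooth muscle, 351, 674 and 941, and Myh11, its myosin heavy chain, 937, 1145 and 1549. Fibroblast and matrix genes summed to 169, 344 and 291 FPKM, with 12 of the 13 that reached 10 CPM lowest in library 1 and 11 of the 13 highest in library 2. Col1a1, a chain of type I collagen, had 76.7, 192 and 153 CPM. Basal epithelial genes summed to 113, 168 and 219 FPKM, and Krt5 and Krt15, keratins of basal cells, had 56.4, 86.3 and 103 CPM and 84.6, 125 and 181 CPM. Of the 9 basal genes that reached 10 CPM, 7 were lowest in library 1. The share of all genes highest or lowest in each library was not counted. Such splits, here and in the other lists, therefore have no background beside them for genes under the 4-fold line.

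Skeletal muscle transcripts were highest in WT library 3. Of a list of 19 genes, 10 reached 10 CPM, 8 were over the line and all 8 were highest in library 3. Over all 9198 genes, 1.1% were over the line with library 3 highest. Of the 8, all but Ckm were under 10 CPM in both libraries 1 and 2. Those genes reached the mean of 10 CPM through library 3 alone, so library 3 had to be highest in them. Myh4, a fast myosin heavy chain, had 0, 0 and 1186 counts, or 61.9 CPM in library 3, at least 461-fold higher than the floor. Tnnt3, fast troponin T, had 3, 7 and 978 counts. Atp2a1, the calcium pump of fast fibres, had 3, 0 and 859 counts, and 21.9% of its exonic bases overlap Rabep2. Ckm, muscle creatine kinase, had 9.24, 13.2 and 59.3 CPM, so it was present in all 3. The list summed to 292, 541 and 973 FPKM, most of it from Acta1 (209, 418 and 639 FPKM) and from Tpm1, a tropomyosin gene that smooth muscle also expresses. Acta1 had 6318 and 14876 counts in libraries 1 and 2, where Myh4 had 0. The sum thus did not follow the fast-fibre genes, and the source of Acta1 in those libraries was not tested. Tnnc2 is listed at 0, and 74.0% of its exonic bases overlap Ube2c. Whether these transcripts bear on the seminal vesicle genes, which were also highest in library 3, was not tested.

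Adipocyte genes showed the reverse pattern, with WT library 3 lowest. Of 10 genes, 8 reached 10 CPM, all 8 were lowest in library 3, and 6 were over the line. Over all 9198 genes, 2.22% were over the line and 0.511% were over it with library 3 lowest. Cfd, the adipokine adipsin, had 156, 280 and 18.1 CPM, Fabp4, a fatty acid-binding protein, 51.3, 85.8 and 4.54, and Adipoq, adiponectin, 14.1, 23.0 and 0.522. Plin1, a lipid droplet protein, had 20.2, 19.5 and 0.470 CPM. Lpl, lipoprotein lipase, which is not limited to fat, had 79.7, 77.1 and 26.7 CPM and did not pass the line. The list summed to 259, 416.7 and 34.3 FPKM. None of the 15 luminal genes passed the line.

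Immune, neuroendocrine, vascular and urothelial markers were also summed. Macrophage and dendritic cell genes had 186, 264 and 330 FPKM, led by Cd74, the invariant chain of class II antigen presentation, with 107, 131 and 201 CPM. T and NK cell genes summed to 0.965, 5.61 and 4.0 FPKM, and none reached 10 CPM. Neuroendocrine genes summed to 3.86, 2.31 and 0.835 FPKM, and 3 of the 10, Insm1 and Sst among them, were at 0 in all libraries. Endothelial genes summed to 18.5, 27.2 and 34.6 FPKM and mast cell genes to 8.24, 11.3 and 9.03. In the urothelial list, Upk1b, a uroplakin, had 196, 141 and 106 CPM, and Upk1a 34.8, 148 and 14.4, which passed the line, while Krt20 and Upk3a were at 0 in library 3. Proliferation genes summed to 47.7, 64.9 and 52.6 FPKM, with Mki67, a nuclear protein of cycling cells, at 22.4, 40.9 and 30.1 CPM. Heat shock genes Hspa1a and Hspa1b were highest in library 1, with 71.6, 38.9 and 20.2 CPM and 206, 105 and 61.6 CPM, and as near-identical copies they may share reads.

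Some levels depend on how reads were assigned to near-identical or overlapping sequences. mt-Co2, mt-Co3, mt-Atp6, mt-Nd3 and mt-Nd4l averaged 94.4, 53.9, 51.4, 43.1 and 17.4 FPKM, far below the 7328 of mt-Co1. Over almost their whole length, copies on chromosome 1 (24612407 to 24615565) match these 5 genes at 98% identity or more. Coverage and level did not go together in every mitochondrial gene, since mt-Nd4 averaged 2012 FPKM with 63.6% of its length so matched, and mt-Atp8 averaged 1.79 FPKM with 21.1%. Gapdh, a glycolytic enzyme gene with many processed pseudogenes, had only 4.73, 43.5 and 2.77 CPM. Tagln, a smooth muscle protein, had 8.82, 14.4 and 16.8 CPM, and 67.9% of its exonic bases overlap other genes, chiefly Gm48529 on the other strand. Hba-a1 and Hba-a2, the near-identical alpha-globin genes, had 30.1, 21.2 and 32.3 CPM and 6.04, 4.43 and 8.72 CPM. Levels of these genes are therefore uncertain.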

How the data were processed

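The authors deposited raw read counts per gene (whole numbers, not normalised), gene lengths in bases and FPKM values per library. The submitters' processing notes name GRCm38 (mm10) as the genome build. No source used here names an aligner, a counting program or a strand setting. The deposited FPKM carry scaled totals, 1.03, 1.10 and 0.977 times the plain totals of WT libraries 1 to 3. Levels of different genes were compared on FPKM, and ratios between libraries were taken on CPM from counts. List sums and the levels of some single genes are given per library on FPKM, which carries these other totals.

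CPM used TMM factors from edgeR 4.0.16 in R 4.3.3, and the biological coefficient of variation came from estimateDisp with an intercept only, checked on simulated data. With 1 group of 3 libraries no test was made. Alternatives were plain totals, DESeq2 1.42.0 size factors, totals without genes over 1% of a library, FPKM, lower and higher CPM minimums and each library left out. Exon overlaps (GENCODE vM21) and mitochondrial copies were found with bedtools 2.31.1 and blastn 2.17.0. Of 43 leading genes, 28 had a RefSeq promoter window. No protein sequences were used here. Where several identifiers shared a symbol (103 symbols), the one with most counts was taken for the lists.

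Genes were named by a rule: 4 markers, the 20 largest by share and by FPKM, the 20 most and 10 least variable, the 10 transcription factors with highest FPKM, and up to 4 leading members of each of 26 lists, plus members over 4-fold. The members and lists were chosen with earlier results of these data known. Other genes named, among them Srd5a2, Srd5a1, Srd5a3, Slc45a3, Slc12a2, Gapdh, Dcpp3 and Prss30, were chosen after their values were seen. Some genes that this rule or the lists include are not reported here.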

Additional observations from a re-analysis of the deposited data

How the results depend on the processing

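No paired analysis was possible because the replicate numbers follow accession order only, there is 1 group and no result comes from a test. The share held by the 10 most abundant genes, 26.6% of counts, was 35.7% of summed FPKM, which weights short transcripts more. With 1 library left out it was 24.7% to 29.1%. The 204 genes over 4-fold became 1074 with a minimum mean of 1 CPM and 72 with 50 CPM, and 38 to 186 with 1 library left out. The biological coefficient of variation rose from 0.311 to 0.535 with no filter on low counts. Plain totals, DESeq2 size factors, totals without genes over 1% and FPKM gave 192 to 209 variable genes, of which 176, 204 and 201 were shared with the 204 under the first 3. With 3 libraries, an SD is itself imprecise, and a gene at 10 CPM rests on about 190 counts per library.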

Other observations

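The genes over 4-fold lower in WT library 2 than in both others, 16 in all, were chosen after their values were seen. Beside Akr1b7 and Crisp1 they include Ptgs2, the inducible cyclooxygenase, with 268, 4.97 and 193 CPM in WT libraries 1, 2 and 3, and Ptgds, a prostaglandin D synthase, with 13.1, 2.69 and 28 CPM. Serpina1f, a serpin, had 222, 10.4 and 185 CPM, and Abcg2, an efflux transporter, 112, 6.8 and 113. The group also holds 3 developmental transcription factors. Pax2 had 20.5, 4.74 and 30.4 CPM and Pax8 10.9, 2.28 and 19.3, both paired-box factors of the Wolffian duct, and Irx1 had 12.9, 1.61 and 15.6. That library 2 lies below both others is how these genes were chosen. Libraries 1 and 3 lay close in Abcg2 and further apart in Ptgds and Pax8.

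WT library 2 was also high in Creb3l4, a membrane-bound factor of secretory cells, with 4.52, 23.2 and 2.61 CPM. Mat2a, which makes the S-adenosylmethionine that Amd1 uses, had 195, 982 and 119 CPM. Creb3l4 and Mat2a are among the 47 genes over 4-fold above both others in library 2, so their peak there is how they were chosen. Amd1, a member of the polyamine list, was also highest in this library, which had the most Sbp transcript. A relation over 3 libraries was not tested.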
